A study of Homo sapiens with 12 samples.

Results

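The comparison described here is that of cariporide with no drug at 10 mM glucose, in 6 of the 12 RNA sequencing libraries of the study. Cells of MDA-MB-231, an established human line of triple-negative breast cancer labelled epithelial and wild type, were kept for 48 h in 1 of 4 media. The libraries were chosen by their labels: CAR 1 to 3 had 10 mM glucose and 25 µM cariporide, and NG 1 to 3 had 10 mM glucose and no drug. LGCAR 1 to 3 (5 mM glucose, 25 µM cariporide) and LG 1 to 3 (5 mM glucose, no drug) are used only to set the drug's values at the other glucose level beside these. All 4 groups were grown in RPMI with fetal bovine serum and without antibiotics. The study used 1 cell line, and nothing in the sources used here ties replicates to separate cultures, so that p-values may cover only technical spread. The tables were joined on the gene symbol, and 15104 of 40929 genes passed the filter on low counts and were tested.

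Cariporide blocks sodium-proton exchange at the plasma membrane, which carries protons out of the cell as sodium enters. Tumour cells that run on glycolysis make much acid, and proton exchange, bicarbonate transporters, carbonic anhydrases and lactate carriers keep their interior from turning acidic while the space around them does. In breast cancer cells proton extrusion is also known for a part in migration and invasion. The drug acts on the protein, so the data show what followed in RNA after 48 h and not whether the exchange was blocked.

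The total counts were 24837409, 22721107 and 23708870 for CAR 1 to 3, and 21583548, 20771898 and 23372248 for NG 1 to 3. Levels are given as CPM, counts scaled to library size with TMM factors. Against the epithelial label, CDH1, the epithelial cadherin, was at 0.953 to 1.41 CPM and VIM, a mesenchymal filament, at 1609 to 1767 CPM, while the epithelial keratin KRT8 was at 439 to 505 CPM. Of the receptors whose absence defines triple-negative tumours, PGR was at 0 and ESR1 at most at 0.0784 CPM in the 6 libraries, whereas ERBB2, which encodes HER2, was at 56.9 to 60.1 CPM, a level of RNA that does not measure the protein. Of the listed markers of immune, endothelial and fibroblast cells, 2 of 9, 2 of 6 and 4 of 8 passed the filter on low counts. Only these were summed. The sums came to 55.8 to 63.3 CPM in CAR against 61.1 to 62.2 CPM in NG for the immune list, 4.42 to 4.43 against 4.37 to 5.17 CPM for the endothelial list, and 25.0 to 26.4 against 23.4 to 27.7 CPM for the fibroblast list. The immune sum was almost all CD68, and CD3E and CDH5 were at or near 0.

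The 3 CAR libraries did not group together. In a principal component analysis of the tested genes, CAR 2 and CAR 3 stood apart from all other libraries on the second component (23.5 and 26.7), whereas CAR 1 lay at 1.57, beside NG 3 at 1.43. Leaving ribosomal RNA genes out, the chi-square per degree of freedom between libraries, which is near 1 where they differ by counting error alone, was 2.06 for CAR 2 and CAR 3, but 13.05 for CAR 1 and CAR 2 and 12.4 for CAR 1 and CAR 3. CAR 1 differed less from NG 3 (3.01) and NG 2 (3.93) than from either library of its own group. CAR 2 in turn differed less from NG 1 (3.93) than from CAR 1. Results are therefore given with all 6 libraries and, where it bears on them, without CAR 1; why CAR 1 lies there was not tested.

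**Figure D1:**
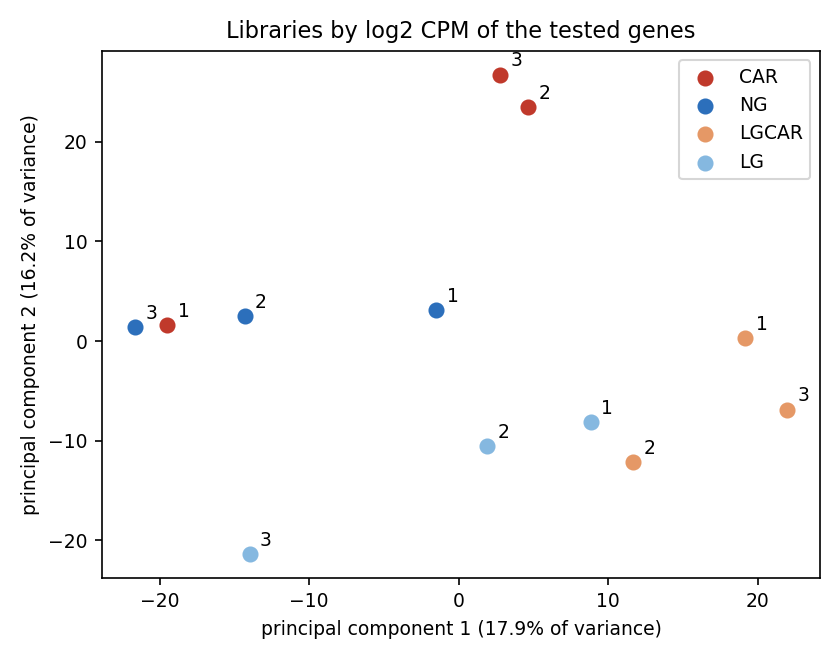
The 12 libraries by the first 2 principal components of log2 CPM over the tested genes, with the percentage of the variance on each axis and the replicate number beside each point. CAR 2 and CAR 3 lie at 23.5 and 26.7 on the second component, and CAR 1 lies among the NG libraries, next to NG 3.

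Cariporide at 10 mM glucose gave no called gene: 0 of 15104 (0%) had an adjusted p under 0.05 (edgeR, quasi-likelihood test, Benjamini-Hochberg adjustment), and the smallest adjusted p was 0.894. At an unadjusted p under 0.05 there were 684 genes (4.53%), 344 (2.28%) higher and 340 (2.25%) lower in CAR, where 5% are expected of tests with no difference. With limma-voom 0 genes were called and 711 had an unadjusted p under 0.05, and with DESeq2 2 were called and 444 had an unadjusted p under 0.05. The 2 were RNR1 and H2AC19, both described below. The CAR and NG libraries did not overlap in 1376 genes (9.11%), of which 671 (4.44%) were higher and 705 (4.67%) lower in CAR. Without CAR 1 no gene was called either, but 2574 genes (16.8%) had an unadjusted p under 0.05, 1292 higher and 1282 lower in CAR, whereas the number was 417 without CAR 2 and 406 without CAR 3. With the share of cytosolic ribosomal RNA in each library as a covariate the number was 2697 (17.9%), again with 0 called.

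The measured differences were small and closely bounded. The log2 fold changes of CAR over NG had a median of 0.0011 and quartiles of -0.066 and 0.084, with a median standard error of 0.0876. Among the 10989 genes that averaged 5 CPM or more in CAR or NG, the 95% confidence interval lay within a 1.5-fold difference in either direction for 10798 (98.3%) and within a 2-fold difference for 10944 (99.6%). Only 23 of these genes were past a 1.5-fold difference. Of the 23, 5 were ribosomal RNA copies, 4 were histone genes, and 11 had a library at 0, with some genes in more than 1 of these counts. The groups did not overlap in 7 of the 23, and none was called. RBM14-RBM4, NPIPB12 and SNORD3A, named after their values were seen, were higher in CAR (log2 fold changes 0.66, 0.66 and 0.87). The rest of the 7, H3C2, H3C3, RNA28SN1 and SLX1A, were lower in CAR. Over all 15104 genes the interval lay within 1.5-fold for 12031 (79.7%). All intervals given here and below are with CAR 1 included, and none were made without it. The analysis measures RNA of the whole culture, in which fewer cells of a kind and less RNA per cell cannot be told apart.

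**Figure D2:**
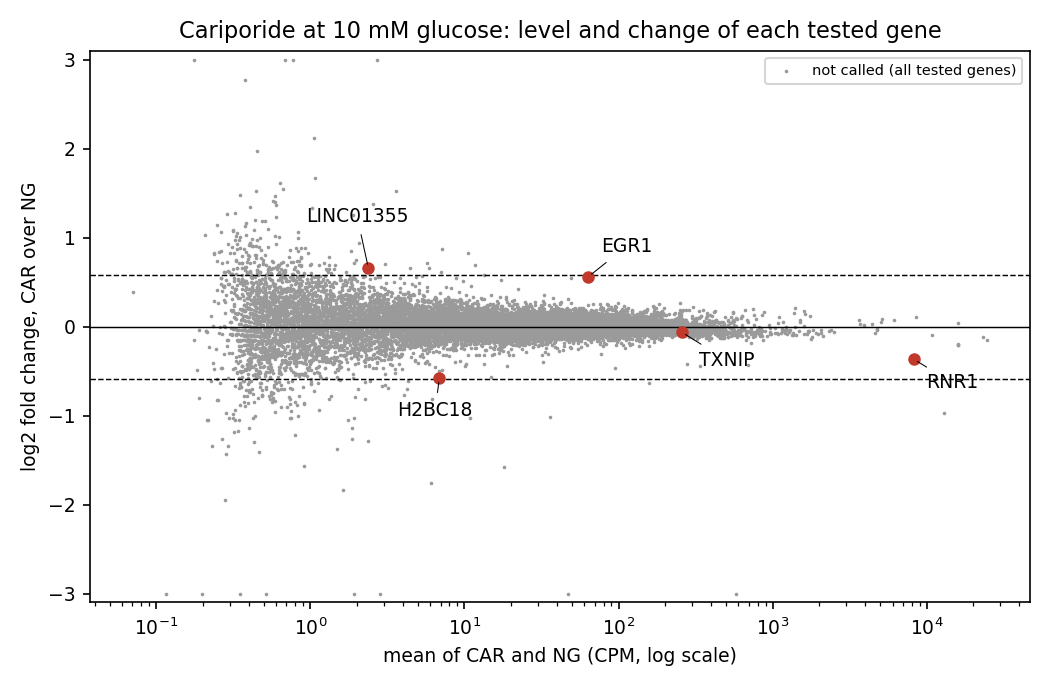
The log2 fold change of CAR over NG (vertical axis) by the mean CPM of both groups (horizontal axis, log scale) for each of the 15104 tested genes, with dashed lines at a 1.5-fold difference and values beyond 3 drawn at the edge. No gene was called. Of the 10989 genes that averaged 5 CPM or more in CAR or NG, only 23 lie past the dashed lines, some of them below 5 CPM on this axis.

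SLC9A7, an exchanger of the trans-Golgi network and endosomes (chromosome X, 46599251 to 46759118 in GRCh38.p14), had the smallest p among the exchangers and their partners. It was at 68.2, 89.4 and 90.2 CPM in CAR 1 to 3, against 74.8, 69.5 and 63.8 CPM in NG 1 to 3. CAR 2 and CAR 3 lay above all NG libraries and CAR 1 lay among them. The log2 fold change was 0.25 (SE 0.124, 95% interval -0.020 to 0.52, edgeR adjusted p = 0.894), and without CAR 1 it was 0.37 (edgeR adjusted p = 0.176). In 5 mM glucose SLC9A7 was at 90.6, 89.7 and 91.2 CPM in LGCAR 1 to 3, against 83.6, 74.9 and 60.1 CPM in LG 1 to 3, a log2 fold change of 0.31 (edgeR adjusted p = 0.401).

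SLC9A8, another exchanger of the Golgi, averaged 34.7 ± 1.65 CPM in CAR and 33.9 ± 2.57 CPM in NG (SD, n = 3 each). SLC9A3, the apical exchanger of kidney and gut, averaged 4.32 ± 0.51 CPM in CAR and 4.12 ± 0.476 CPM in NG, and SLC9A5 3.26 ± 0.117 and 3.31 ± 0.547 CPM (SD, n = 3 each). In SLC9A3, 41.9% of the exon length lies in another gene's exons on its strand, so its level is uncertain. SLC9A2 and SLC9A9 were at most at 0.426 CPM and SLC9A4 was at 0 in all 6 libraries. Per kilobase of exon, the mean level in CAR was 8.23 CPM for SLC9A7, 4.99 for SLC9A8, 0.766 for SLC9A3 and 0.602 for SLC9A5, and the order was the same in NG. SLC9A7 and SLC9A8 did not overlap in either group, whereas SLC9A3 and SLC9A5 overlapped in NG.

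Genes of proteins that work with the exchangers gave no call either. Among the 16 tested genes of the list of exchangers and partners 0 were called, 0 had an unadjusted p under 0.05, and the median log2 fold change was 0.021, against 0.0011 over all genes. With all libraries every one of the 16 intervals excluded a 1.5-fold difference. Without CAR 1 no intervals were made, and SLC9A7 was at a larger log2 fold change of 0.37. CHP1, a calcineurin-like protein that binds exchangers, averaged 73.6 ± 9.99 CPM in CAR and 69.8 ± 6.60 CPM in NG. Ezrin, which ties membrane proteins to actin and is encoded by EZR, averaged 305 ± 3.19 CPM in CAR and 312 ± 2.16 CPM in NG (SD, n = 3 each). EZR, named after its value was seen, was the only 1 of the 16 whose groups did not overlap, beside 9.11% of all genes. Its log2 fold change was -0.030.

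Other routes that move acid and sodium held no called gene. In the list of bicarbonate transporters and carbonic anhydrases 0 of 15 tested members had an unadjusted p under 0.05 and the median was -0.014. CA9, the hypoxia-induced carbonic anhydrase at the cell surface, was at 9.84, 8.45 and 7.86 CPM in CAR 1 to 3, against 8.43, 9.47 and 10.8 CPM in NG 1 to 3, and the groups overlapped. An antisense gene covers 38.5% of the exon length of CA9. In the list of the sodium pump, cation-chloride cotransporters and calcium exchange 0 of 19 had an unadjusted p under 0.05 and the median was 0.0087. V-ATPase subunits and the chloride exchangers of endosomes and lysosomes had a median of -0.012 over 21 members, 0 of them at an unadjusted p under 0.05.

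RNA of genes of glucose use differed little. All 24 tested genes of glucose uptake and glycolysis had an interval within a 1.5-fold difference, 0 had an unadjusted p under 0.05, and the median log2 fold change was -0.021. Without CAR 1 the median was -0.063, with 1 higher and 6 lower in CAR at an unadjusted p under 0.05 (29.2%, beside 16.8% of all genes). GAPDH, a central enzyme of glycolysis, was at 2255, 1952 and 1942 CPM in CAR 1 to 3, against 2048, 2231 and 2319 CPM in NG 1 to 3. PGK1, the next enzyme of the path, was at 996, 933 and 884 CPM in CAR 1 to 3, against 938, 994 and 1056 CPM in NG 1 to 3. For both genes CAR 1 lay among the NG libraries, and CAR 2 and CAR 3 lay below all of them. An antisense gene covers 14.2% of the exon length of GAPDH. Lactate carriers, lactate dehydrogenases and genes of pyruvate entry had a median of -0.059, with 11 of 14 below 0. The 1 member with an unadjusted p under 0.05 (7.14%, beside 4.53% of all genes) was PDK4, a kinase that shuts pyruvate dehydrogenase off. It was at 2.12, 2.95 and 3.39 CPM in CAR 1 to 3, against 4.03, 3.48 and 3.82 CPM in NG 1 to 3. The groups did not overlap (log2 fold change -0.43, edgeR adjusted p = 0.894), and without CAR 1 the value was -0.25.

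TXNIP (chromosome 1, 145992435 to 145996579), an arrestin that holds glucose uptake down and is transcribed under MondoA, which senses the sugar phosphate that hexokinase makes, was the 1 gene for which the test called a difference in the drug's effect between the glucose levels. At 10 mM glucose it was at 263, 249 and 245 CPM in CAR 1 to 3, against 255, 259 and 278 CPM in NG 1 to 3. The groups overlapped, and the log2 fold change was -0.064 (95% interval -0.21 to 0.088, edgeR adjusted p = 0.895). In 5 mM glucose it was at 84.2, 79.8 and 94.5 CPM in LGCAR 1 to 3, against 40.6, 49.9 and 48.6 CPM in LG 1 to 3, and every LGCAR library lay above every LG library. There TXNIP rose with the drug (log2 fold change 0.896, SE 0.0763, edgeR adjusted p = 4.59e-05), as the 1 called gene of 15104 (0.00662%). The change at 5 mM minus that at 10 mM was 0.959 on the log2 scale (SE 0.104, edgeR adjusted p = 0.00138), which was also the 1 called gene of that test (0.00662%). With the share of cytosolic ribosomal RNA as a covariate the difference was 1.002 and no longer called (edgeR adjusted p = 0.0595). The list of MondoA and ChREBP targets that sense glucose, TXNIP included, had at 10 mM 0 of 10 tested members at an unadjusted p under 0.05 and a median of -0.043. ARRDC4, a relative of TXNIP under the same control and named after its value was seen, averaged 5.98 ± 0.85 CPM in CAR and 5.93 ± 0.579 CPM in NG (SD, n = 3 each).

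**Figure D3:**
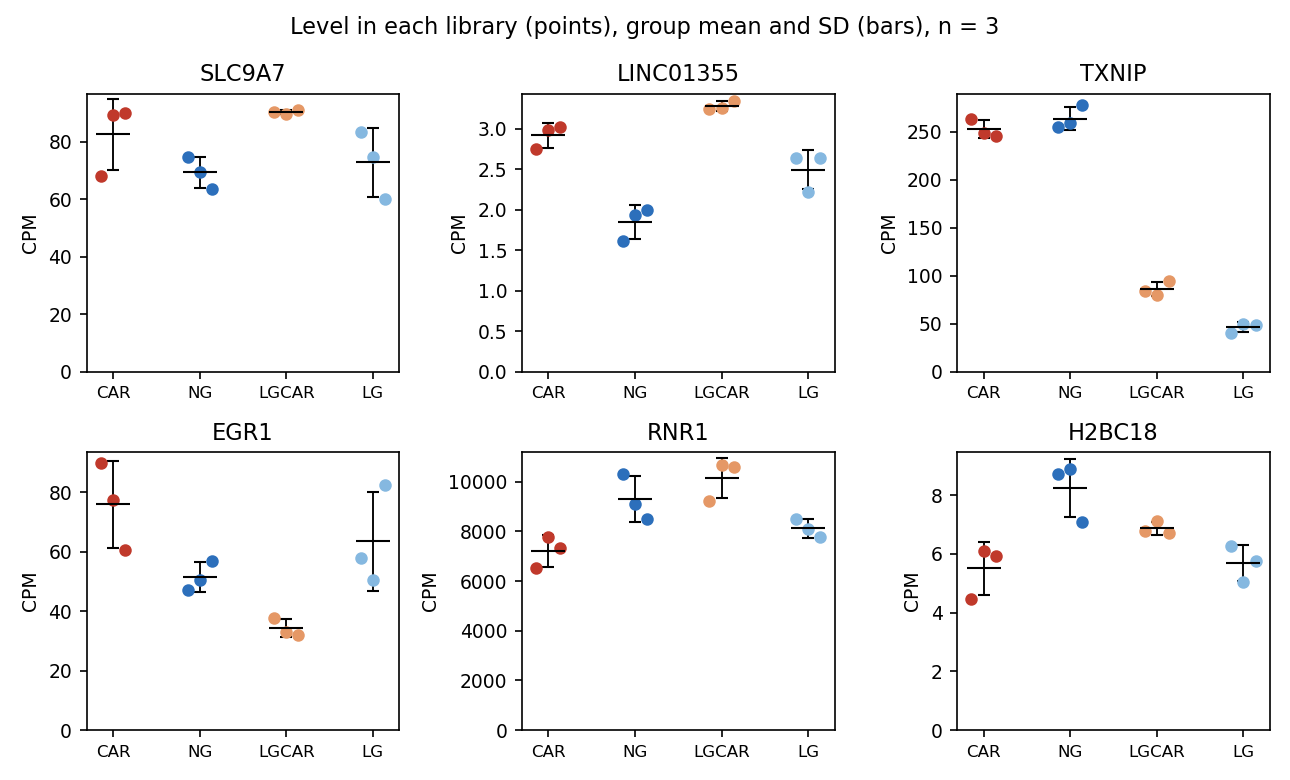
CPM of SLC9A7, LINC01355, TXNIP, EGR1, RNR1 and H2BC18 in each of the 12 libraries (points), with the mean and SD of each group (bars, n = 3). SLC9A7 and TXNIP overlap between CAR and NG, and TXNIP is lower at 5 mM glucose, where every LGCAR library lies above every LG library.

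The 3 genes with the smallest p, none of them called, were a histone gene, a mitochondrial ribosomal RNA and a long non-coding RNA. H2BC18, which encodes a histone H2B (chromosome 1, 149782689 to 149812370), was at 4.47, 6.11 and 5.92 CPM in CAR 1 to 3, against 8.72, 8.89 and 7.09 CPM in NG 1 to 3. Every CAR library lay below every NG library (log2 fold change -0.58, SE 0.13, edgeR adjusted p = 0.894). LINC01355 (chromosome 1, 23281309 to 23285518) was at 2.75, 2.99 and 3.02 CPM in CAR 1 to 3, against 1.61, 1.93 and 1.996 CPM in NG 1 to 3. Its groups did not overlap (log2 fold change 0.66 with SE 0.149, not called at an edgeR adjusted p of 0.894), and at 5 mM glucose it was also higher with the drug, by 0.39.

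RNR1, the 12S ribosomal RNA of mitochondria (mitochondrial genome, 648 to 1601), was at 6518, 7779 and 7320 CPM in CAR 1 to 3, against 10296, 9113 and 8478 CPM in NG 1 to 3. Every CAR library was below every NG library, with the log2 fold change at -0.37 (SE 0.0826 and edgeR adjusted p = 0.894); DESeq2 called it with an adjusted p of 0.0468. At 5 mM glucose the order was the other way round, at 9207, 10674 and 10573 CPM in LGCAR 1 to 3 against 8502, 8088 and 7770 CPM in LG 1 to 3. The difference between the glucose levels was 0.69 for RNR1 and was not called with edgeR (adjusted p = 0.152), but was called with DESeq2. Total mitochondrial ribosomal RNA held 3.12% ± 0.268 of the counts in CAR and 3.50% ± 0.153 in NG (SD, n = 3 each; exact permutation test, two-sided, p = 0.1, the smallest that 3 against 3 can give). Cytosolic ribosomal RNA held 7.87% ± 0.723 in CAR and 9.48% ± 1.67 in NG (SD, n = 3 each; exact permutation p = 0.3), and the part of ribosomal RNA in these values was not tested.

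Histone genes were the list that lay farthest from 0. They are made in S phase to wrap new DNA, and most of their transcripts end without a poly(A) tail. Of the 16 tested replication-dependent histones 15 were below 0, with a median log2 fold change of -0.28, against 0.0011 over all genes. None was called, and 6 had an unadjusted p under 0.05 (all lower in CAR), against 2.25% of all genes at that p and lower. H3C2, a histone H3 gene, was at 2.94, 3.25 and 2.73 CPM in CAR 1 to 3, against 6.16, 4.64 and 4.46 CPM in NG 1 to 3 (log2 fold change -0.77, edgeR adjusted p = 0.894). H2BC21, a histone H2B gene, was at 4.55, 5.37 and 5.34 CPM in CAR 1 to 3, against 6.35, 6.57 and 7.39 CPM in NG 1 to 3 (-0.42). H1-2, a linker histone gene, was at 25.4, 26.1 and 25.0 CPM in CAR 1 to 3, against 28.7, 30.3 and 30.5 CPM in NG 1 to 3 (-0.23). In all 3 genes the CAR libraries, CAR 1 included, lay below the NG libraries. Without CAR 1 the median was -0.21 and 8 members had an unadjusted p under 0.05, beside 16.8% of all genes. The same genes had a median of 0.12 at 5 mM glucose. Among other tested RNAs without a poly(A) tail, the groups did not overlap in RN7SK, a small nuclear RNA, and SCARNA7. Over all genes they did not overlap in 9.11%. RN7SK was at 215, 283 and 211 CPM in CAR 1 to 3, against 330, 329 and 290 CPM in NG 1 to 3. SCARNA7 was at 1.96, 1.86 and 1.95 CPM in CAR 1 to 3, against 2.65, 3.58 and 2.63 CPM in NG 1 to 3. The groups overlapped in RN7SL1, RN7SL2, RMRP, RPPH1 and TERC, with RN7SL1 at 495, 506 and 463 CPM in CAR 1 to 3, against 539, 508 and 426 CPM in NG 1 to 3. Whether the share of such RNA in a library and the histone values have the same source was not tested.

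The DNA replication genes, which histone synthesis accompanies, and the mitosis genes lay near 0. The 34 tested replication and G1/S genes had a median of -0.022 and 0 at an unadjusted p under 0.05. MCM5, part of the replicative helicase, was at 63.8, 59.6 and 59.1 CPM in CAR 1 to 3, against 64.6, 63.9 and 65.8 CPM in NG 1 to 3 (log2 fold change -0.090). The 30 mitotic genes had a median of -0.015, and 1 (3.33%, beside 4.53% of all genes) had an unadjusted p under 0.05. It was HMMR, a hyaluronan receptor that also binds the spindle, at 11.9, 12.3 and 13.3 CPM in CAR 1 to 3, against 15.3, 15.3 and 14.6 CPM in NG 1 to 3 (-0.27, edgeR adjusted p = 0.894). Among 17 cyclins, CDKs and CDK inhibitors, CDKN1C, the inhibitor p57, was at 6.28, 4.59 and 5.30 CPM in CAR 1 to 3, against 7.58, 8.07 and 6.63 CPM in NG 1 to 3 (-0.46, edgeR adjusted p = 0.894). For HMMR and CDKN1C every CAR library lay below every NG library. The 21 targets of p53 had a median of -0.0012, with 0 at an unadjusted p under 0.05.

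Immediate-early genes, which serum, stress and ERK signalling switch on within minutes, lay on both sides of 0. Their 31 tested members had a median of -0.014 and 0 called. At an unadjusted p under 0.05, 1 was higher and 3 lower in CAR (12.9%, beside 4.53% of all genes). EGR1, a zinc finger factor (chromosome 5, 138465479 to 138469303), was at 89.9, 77.4 and 60.8 CPM in CAR 1 to 3, against 47.2, 50.4 and 57.0 CPM in NG 1 to 3. Every CAR library lay above every NG library, with CAR 1 the highest (log2 fold change 0.56 with SE 0.192, edgeR adjusted p = 0.894), and without CAR 1 the value was 0.42. EGR1 was, at 5 mM glucose, lower with the drug, at 37.7 CPM or less in all 3 LGCAR libraries against 58.0, 50.4 and 82.3 CPM in LG 1 to 3. The difference between the glucose levels was -1.45 and was not called with edgeR (adjusted p = 0.911), but was called with DESeq2. FOS, a subunit of AP-1, was at 16.2, 14.1 and 12.5 CPM in CAR 1 to 3, against 19.1, 16.6 and 15.2 CPM in NG 1 to 3, so that CAR 1 alone reached into the NG values (-0.25). IER5 was at 99.8, 86.0 and 81.5 CPM in CAR 1 to 3, against 106.8, 100.8 and 100.1 CPM in NG 1 to 3 (-0.20, edgeR adjusted p = 0.894), and CAR 1 lay just under the NG values.

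Genes of the stress responses leaned below 0 by small amounts. The unfolded protein response of the ER, which adds folding capacity, had a median of -0.046 with 18 of 24 members below 0. Without CAR 1 the median was -0.088, with 2 higher and 6 lower in CAR at an unadjusted p under 0.05 (33.3%, beside 16.8% of all genes). CRELD2, an ER chaperone-like protein, was at 17.3, 14.8 and 16.4 CPM in CAR 1 to 3, against 20.3, 20.01 and 18.6 CPM in NG 1 to 3 (log2 fold change -0.28 with SE 0.0729, edgeR adjusted p = 0.894). Its groups did not overlap, and at 5 mM glucose the value was -0.28 as well. Targets of ATF4, which the integrated stress response switches on, had a median of -0.055, with 27 of 36 below 0. At an unadjusted p under 0.05 there were 3 (8.33%, beside 4.53% of all genes). CEBPB, a transcription factor of that list, was at 100.4, 62.6 and 75.7 CPM in CAR 1 to 3, against 131.7, 106.5 and 92.6 CPM in NG 1 to 3 (-0.47, edgeR adjusted p = 0.894), and CAR 1 lay among the NG values. An antisense gene covers 11.8% of the exon length of CEBPB. SLC3A2, the heavy chain of amino acid exchangers, was at 306, 282 and 286 CPM in CAR 1 to 3, against 315, 310.2 and 331 CPM in NG 1 to 3 (-0.13).

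Cytosolic heat shock genes had a median of -0.078, with 18 of 20 below 0. At an unadjusted p under 0.05 there were 4 (20%, beside 4.53% of all genes), all lower in CAR. HSPA1B, an inducible HSP70, was at 382, 375 and 391 CPM in CAR 1 to 3, against 433, 411 and 412 CPM in NG 1 to 3 (log2 fold change -0.13, edgeR adjusted p = 0.894). Another gene of the same strand covers 36.5% of the exon length of HSPA1B. BAG3, a co-chaperone, was at 90.02, 76.3 and 83.9 CPM in CAR 1 to 3, against 90.6, 95.05 and 91.5 CPM in NG 1 to 3 (-0.15). For both genes every CAR library lay below every NG library, for BAG3 by a narrow margin. Without CAR 1, 8 heat shock genes were lower and 1 higher at an unadjusted p under 0.05, beside 16.8% of all genes, and the median was -0.11. Hypoxia genes, which answer to HIF, had a median of -0.033 over 28 members. Without CAR 1 it was -0.066, with 1 higher and 7 lower in CAR at an unadjusted p under 0.05 (28.6%, beside 16.8% of all genes). LOX, an enzyme that crosslinks collagen, was at 105.7, 103.8 and 97.3 CPM in CAR 1 to 3, against 112.3, 110.9 and 112.3 CPM in NG 1 to 3 (-0.13, edgeR adjusted p = 0.894).

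Ribosomal protein genes lay below 0 almost throughout, by a few percent. Of 40 tested, 37 were below 0, the median log2 fold change was -0.079, and 0 had an unadjusted p under 0.05. Their sum was 25813, 22273 and 22364 CPM in CAR 1 to 3, against 23432, 24670 and 26248 CPM in NG 1 to 3. CAR 2 and CAR 3 were the lowest of the 6 and CAR 1 the second highest, after NG 3. Without CAR 1 the median was -0.16 and 25 of the 40 had an unadjusted p under 0.05, all lower in CAR, beside 16.8% of all genes, and none was called. The median at 5 mM glucose was -0.15. Ribosome biogenesis and MYC targets had a median of -0.063, with 24 of 29 below 0. At an unadjusted p under 0.05 there were 4 (13.8%, beside 4.53% of all genes). ODC1, a MYC target and the first enzyme of polyamine synthesis, was at 112.1, 107.1 and 112.4 CPM in CAR 1 to 3, against 118.5, 130.8 and 132.1 CPM in NG 1 to 3 (-0.20, edgeR adjusted p = 0.894). The groups did not overlap, and CAR 1 lay with the other CAR libraries. The list of polyamine metabolism, which holds ODC1 too, had a median of -0.083 with 10 of 11 below 0.

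The respiratory chain differed in sign between its genomes. The 36 tested subunits from nuclear genes had a median of -0.050 with 25 below 0, and 0 had an unadjusted p under 0.05. Of the 13 messenger RNAs of the mitochondrial genome 12 were above 0, with a median of 0.074. Without CAR 1 the medians were -0.092 and -0.012, so the sign of the mitochondrial list rested on CAR 1. Of the nuclear genes 1 was then higher and 9 lower in CAR at an unadjusted p under 0.05 (27.8%, beside 16.8% of all genes). The mitochondrial messenger RNAs summed to 66796, 57279 and 60030 CPM in CAR 1 to 3, against 54813, 59058 and 63179 CPM in NG 1 to 3. CAR 1 was the highest and NG 1 the lowest of the 6 libraries. ND6, the complex I subunit read from the light strand, was at 186, 206 and 210 CPM in CAR 1 to 3, against 159, 169 and 178 CPM in NG 1 to 3 (log2 fold change 0.25, SE 0.0735, edgeR adjusted p = 0.894). Every CAR library of ND6 lay above every NG library, and without CAR 1 the value was 0.30. At 5 mM glucose the mitochondrial list had a median of -0.19, while ND6 was at 0.16. The mitochondrial sum was 66094 CPM in LG 3, above 55455 and 58114 CPM in LG 1 and LG 2. No median was made without LG 3.

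Signalling lists for migration, inflammation and growth lay within 0.1 of 0. YAP and TEAD targets, which answer to tension and cell density, had a median of 0.026 over 23 members with 0 at an unadjusted p under 0.05. TGF-beta and BMP feedback genes had a median of 0.0040 over 23. PMEPA1, which damps TGF-beta signals, was at 83.3, 85.7 and 89.8 CPM in CAR 1 to 3, against 78.7, 81.5 and 76.0 CPM in NG 1 to 3 (log2 fold change 0.13, edgeR adjusted p = 0.894). NF-kB targets had a median of -0.035, with 0 of 30 at an unadjusted p under 0.05. Without CAR 1 it was -0.076, with 2 higher and 5 lower in CAR (23.3%, beside 16.8% of all genes). CXCL1, a neutrophil chemokine, was at 82.9, 65.5 and 64.7 CPM in CAR 1 to 3, against 77.8, 81.3 and 85.4 CPM in NG 1 to 3, and CAR 1 lay among the NG values. The NF-kB list had, at 5 mM glucose, a median of -0.18, and whether it differed from that at 10 mM was not tested for the list. Interferon-stimulated genes had a median of -0.010 over 31. At an unadjusted p under 0.05, 2 were higher and 3 lower in CAR (16.1%, beside 4.53% of all genes). Without CAR 1 the median was -0.062, with 1 higher and 7 lower at that p (25.8%, beside 16.8% of all genes). OASL, an antiviral protein, was at 11.6, 10.9 and 10.8 CPM in CAR 1 to 3, against 13.7, 13.7 and 14.1 CPM in NG 1 to 3 (-0.32, edgeR adjusted p = 0.894), while its relative OAS2 was at 15.5, 15.2 and 14.3 CPM in CAR 1 to 3, against 13.2, 12.8 and 13.4 CPM in NG 1 to 3 (0.19).

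Genes of movement and matrix breakdown were level. The 32 genes of cytoskeleton, adhesion and migration had a median of -0.0090, and the 32 intervals all excluded a 1.5-fold difference. RHOB, a small GTPase of endosomes, was at 23.3, 20.3 and 22.8 CPM in CAR 1 to 3, against 26.6, 25.1 and 24.9 CPM in NG 1 to 3 (log2 fold change -0.20, edgeR adjusted p = 0.894). ITGA2, the collagen receptor subunit, was at 165, 183 and 178 CPM in CAR 1 to 3, against 163, 157 and 161 CPM in NG 1 to 3 (0.13). Both genes had no overlap between the groups, RHOB with CAR lower and ITGA2 with CAR higher. Matrix proteases, urokinase and inhibitors had a median of -0.041 and 0 of 19 at an unadjusted p under 0.05. PLAU, which encodes urokinase, was at 413, 401 and 417 CPM in CAR 1 to 3, against 385, 396 and 398 CPM in NG 1 to 3 (0.061). An antisense gene covers 31.1% of the exon length of PLAU.

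Lipid, lysosome and mucin genes made up the rest. Cholesterol synthesis and uptake had a median of -0.024, with 20 of 25 below 0, 0 at an unadjusted p under 0.05 and every interval within 1.5-fold. Without CAR 1 the median was -0.079, with 6 (24%, beside 16.8% of all genes) lower in CAR at that p. SQLE, an enzyme of sterol synthesis that uses oxygen, was at 40.8, 40.3 and 38.9 CPM in CAR 1 to 3, against 40.6, 42.2 and 44.9 CPM in NG 1 to 3, and CAR 1 lay among the NG values. Fatty acid genes had a median of -0.00098 over 30. PLIN2, the coat protein of lipid droplets, was at 82.9, 74.0 and 74.3 CPM in CAR 1 to 3, against 84.4, 87.7 and 93.5 CPM in NG 1 to 3 (log2 fold change -0.20 with SE 0.0571, edgeR adjusted p = 0.894). Its groups did not overlap, and at 5 mM glucose the value was -0.19. Lysosome and autophagy genes had a median of -0.023 over 35. Among 5 tested mucins MUC5B, a gel-forming mucin, was at 1.84, 1.73 and 1.08 CPM in CAR 1 to 3, against 2.32, 2.95 and 2.34 CPM in NG 1 to 3 (-0.70, SE 0.197, edgeR adjusted p = 0.894). Every CAR library of MUC5B lay below every NG library, and at 5 mM glucose the value was -0.49.

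Beside the exchanger list, 31 lists were described. In 30 of them the median log2 fold change lay within 0.1 of 0, the exception being the histones. The median was below 0 in 26 and above 0 in 5. Over the 742 entries of the 31 lists, some genes being in more than 1, 6 were higher and 35 lower in CAR at an unadjusted p under 0.05. That was 5.53% of the entries, beside 4.53% of all genes, of which 344 (2.28%) were higher and 340 (2.25%) lower. Without CAR 1 the numbers were 36 higher and 141 lower (23.9%, beside 16.8% of all genes), the median was below 0 in 28 lists, and it was past 0.1 from 0 in 4, those of histones, ribosomal proteins, heat shock genes and polyamine metabolism. In 17 lists every member's interval lay within a 1.5-fold difference with all libraries. Of the lists used to check the cells, which are not among the 31, that of epithelial and keratin genes had a median of -0.11, with 7 of 8 below 0. In that list 3 genes were lower in CAR at an unadjusted p under 0.05, beside 2.25% of all genes. The groups overlapped in every member. For KRT7, KRT8, KRT18, KRT19 and KRT81, CAR 1 lay among the NG values, and CAR 2 and CAR 3 lay below them.

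**Figure D4:**
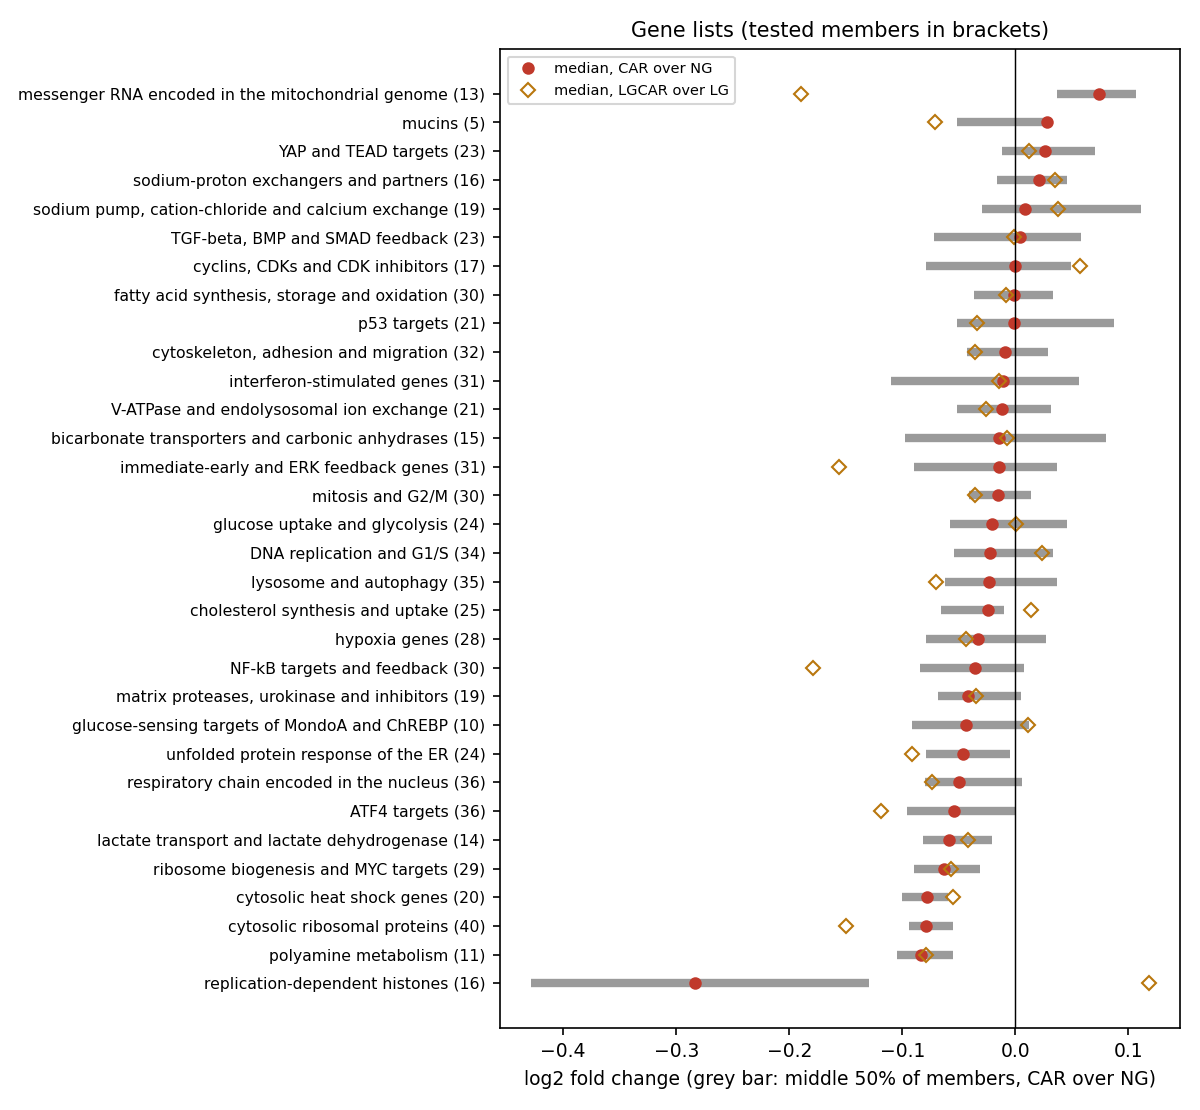
Median log2 fold change of the tested members of each list in CAR over NG (filled points, with grey bars for the middle 50% of members) and in LGCAR over LG (open points). All filled points but the histones at -0.28 lie within 0.1 of 0. The open points of several lists, those of the histones and of the mitochondrial messenger RNAs among them, lie on the other side of 0.

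At 5 mM glucose the same drug and dose gave 1801 genes (11.9%) at an unadjusted p under 0.05, and the test of the difference between the glucose levels gave 472 (3.12%). LG 3 stood apart from its group. Leaving ribosomal RNA genes out, its chi-square per degree of freedom was 13.2 with LG 1 and 7.73 with LG 2, against 2.80 for LG 1 and LG 2. All list medians given for 5 mM include LG 3, and none were made without it. The count at 5 mM rested on single libraries and on the model as the count at 10 mM did: it was 755 (4.91%) without LG 3, 1157 without LGCAR 1 and 2852 (18.6%) without LG 1. With the share of cytosolic ribosomal RNA as a covariate it was 654 (4.33%), below the 2697 at 10 mM under the same covariate, so the order of the glucose levels turned round. The comparisons of CAR with NG and of LGCAR with LG have no library in common. Over the 15104 genes the log2 fold changes had the same sign at both glucose levels in 10014 (66.3%), with a Spearman rho of 0.341 and a Pearson r of -0.017 across genes, which are not independent. Among the 684 genes with an unadjusted p under 0.05 at 10 mM, 511 (74.7%) had the same sign at 5 mM. At both levels 122 genes had an unadjusted p under 0.05, and 105 of these had the same sign. CRELD2, PLIN2, ND6, OAS2, RHOB and MUC5B are among the same-signed genes described above, and EGR1, RNR1 and H2BC21 had opposite signs.

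**Figure D5:**
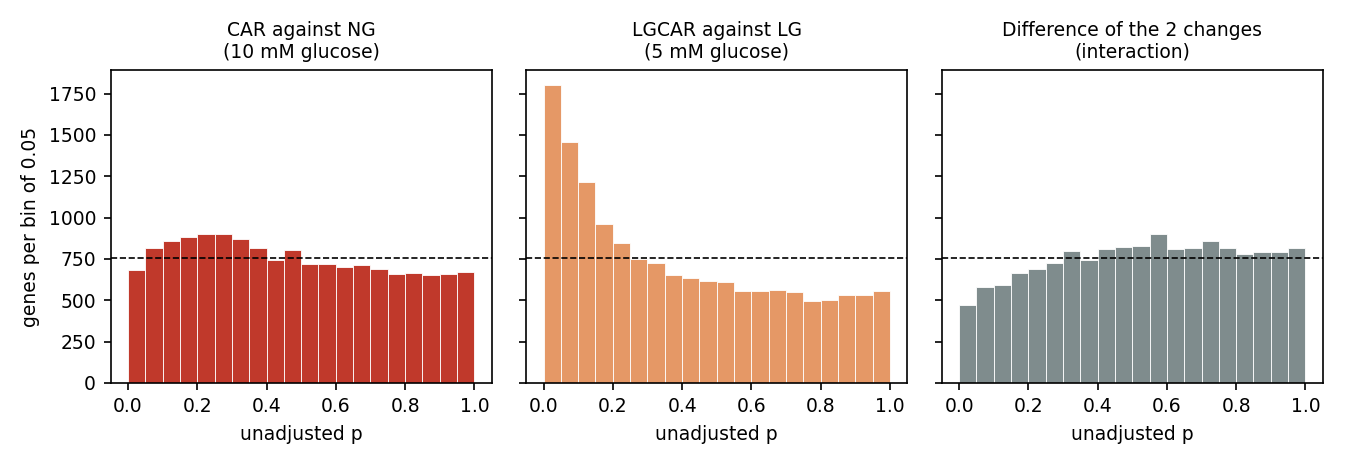
Number of genes in each bin of 0.05 of the unadjusted p for CAR against NG, LGCAR against LG and the difference of both changes, with a dashed line at the number per bin if p were evenly spread. CAR against NG holds 684 genes in its lowest bin, against 1801 for LGCAR against LG, and this order turns round with the ribosomal RNA covariate (2697 against 654).

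Some of the widest fold changes were between near-identical copies. SLX1A and SLX1B, copies of a nuclease subunit named after their values were seen, summed to 16.1, 14.4 and 13.5 CPM in CAR 1 to 3, against 15.02, 14.6 and 13.9 CPM in NG 1 to 3. SLX1A alone was at 0, 0.0867 and 0.248 CPM in CAR 1 to 3, against 15.02, 1.01 and 0.51 CPM in NG 1 to 3. H2AC18 and H2AC19, a pair of histone H2A copies also named after their values were seen, behaved likewise. H2AC19 was listed at 0 in CAR 1 and all NG libraries and at 9.01 and 7.20 CPM in CAR 2 and CAR 3, while the pair summed to 8.08, 9.01 and 7.20 CPM in CAR 1 to 3, against 10.4, 9.81 and 7.99 CPM in NG 1 to 3. The sums differed far less than the single copies, so the level of each copy is uncertain.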

How the data were processed

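Per the labels' protocols, RNA was taken with Trizol and 1.3 µg of total RNA went into NEBNext Ultra II Directional libraries. The values used are raw counts per gene symbol, deposited as 1 table for each library. The submitters' processing notes name GRCh38 and the tools GATK, Salmon, STAR and fastp, with the counting tool, its version and any use of strand not given in the sources used here.

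From the counts, edgeR 4.0.16 in R 4.3.3 (robust quasi-likelihood test, TMM scaling, filterByExpr over the 4 groups) was run on all 12 libraries, each group with its own mean. P-values were adjusted by Benjamini and Hochberg over all 15104 tested genes, and an adjusted p under 0.05 was called. Intervals are 95% and use the fit's standard error. The biological coefficient of variation common to all genes was 6.94%. The test was tested on simulated data. Alternatives used limma 3.58.1 (voom) and DESeq2 1.42.0, other scalings, filters and covariates, and fits without 1 library. CAR 1 and NG 1 left out together was added after seeing the data.

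The members and the 42 lists were chosen with earlier results of these data known, and lists were not tested. Named genes were SLC9A exchangers, TXNIP, the 3 smallest p, up to 3 of smallest p in each described list, and genes called in the interaction. Some others are said to be chosen after their values were seen. The rest, such as CHP1, RN7SK, SCARNA7, RN7SL1, H3C3 and RNA28SN1, also lie outside this rule. Coordinates are of RefSeq on GRCh38.p14, counted from 1, where 14940 tested symbols were found. Exon lengths and overlaps are from GENCODE 29, which held 90 of 94 named genes. A few genes that fall under the naming rule are left unreported. No duplicate libraries were found. Figures were made with matplotlib 3.10.9.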

Additional observations from a re-analysis of the deposited data

Results flagged for a closer look

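TXNIP, the arrestin that limits glucose uptake, was the 1 gene whose response to cariporide differed between the glucose levels by the test of that difference: the change at 5 mM minus the change at 10 mM was 0.959 on the log2 scale (edgeR adjusted p = 0.00138, higher in 3 of 3 LGCAR libraries than in every LG library). It lost the call with the share of cytosolic ribosomal RNA as a covariate (edgeR adjusted p = 0.0595) and kept it without each single library. Groups of 3 were not tested for outlying samples.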

How the results depend on the processing

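CAR against NG had 0 called genes under RLE scaling, library totals, both other filters, ribosomal RNA left out or as a covariate, limma-voom, the 6 libraries alone and the replicate block (600 genes at an unadjusted p under 0.05). Deviations of same-numbered CAR and NG libraries had r of -0.096, -0.037 and -0.111 across genes, so the block rests on a shared number alone. DESeq2 called 2 (H2AC19 and RNR1), and leaving out 1 library gave 0 to 2: AHRR and the read-through PDCD6-AHRR without NG 1, MIRLET7BHG without NG 2, and RNVU1-7 without NG 3. Without both CAR 1 and NG 1, 2 were called (again AHRR and PDCD6-AHRR), and 3293 genes (21.6%) had an unadjusted p under 0.05. AHRR overlaps PDCD6-AHRR and was at 0 in every CAR library and NG 1, and how reads were shared out between them was not tested. These genes were named after their values were seen. LGCAR against LG had 15 calls with no filter, 20 with DESeq2 and 1 to 3 without 1 library. The interaction had 2 with no filter, 0 with the ribosomal RNA covariate, 5 with DESeq2 (TXNIP, H2AC19, RNR1, EGR1 and TMEFF1), 1 to 3 without 1 library and 2 without CAR 1 and NG 1.

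Of the genes at an unadjusted p under 0.05, 50.3% were higher in CAR, against 86.4% with library totals, which moved the median of all genes to 0.039, 60.8% with no filter and 60.9% with the 6 libraries alone. Log2 fold changes near 0 turned sign. Without 1 library, or CAR 1 and NG 1, they ran from -0.062 to 0.12 for MUC4, -0.23 to 0.098 for MUC5AC, -0.023 to 0.27 for ND4L, -0.030 to 0.16 for SCNN1A, -0.037 to 0.12 for SLC9A3, -0.12 to 0.11 for SLC9A5 and -0.027 to 0.12 for SLC9A8. With the covariate ND4L was at -0.063 and SCNN1A at -0.018, and with library totals SLC9A5 was at 0.015. The cause was not tested. Of the values for single named genes under other settings, 1612 kept direction and side of the threshold and 14 turned sign. Most of these genes were picked for a small p in the same libraries, and none was called in CAR against NG. Such counts therefore say little of how stable the values are. Low counts limit precision: the 95% interval lay within a 1.5-fold difference for 98.3% of the genes at 5 CPM or more, against 79.7% of all tested genes.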
